A study of Homo sapiens with 60 samples.

Results

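Saengmaek-san is a formula of Korean medicine traditionally made from ginseng root, lilyturf tuber and schisandra fruit. The comparison described here sets its water extract at 500 µg/mL against the same extract at 20 µg/mL, across all genes. It rests on 6 of the 60 libraries of the series, 3 at each dose, taken by the dose given in the sample labels. All cells were HepG2, a human hepatocellular carcinoma line that keeps many functions of hepatocytes, treated for 24 h. The 3 libraries at 100 µg/mL and the 3 vehicle libraries are given beside them. Water extracts of Guibi-tang, Soyo-san and Okbyeongpung-san, which are formulas, and of the single herbs Menthae Herba and Saposhnikoviae Radix had the same doses, time and number of replicates. Their libraries enter the fit behind each p-value, and their change from 20 to 500 µg/mL is compared with that of Saengmaek-san. The vehicle is DMSO, whose concentration the sample labels and the series text state differently. No label says that replicates are separate cultures. The spread behind each p-value is therefore that between these samples and may be technical. The comparison asks which genes change with dose within 1 extract, when both groups received it.

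Metallothioneins are small cysteine-rich proteins that bind zinc and copper. Their genes are switched on by the zinc-sensing transcription factor MTF1 through short metal response elements in their promoters. Zinc enters the cytosol through transporters of the SLC39 (ZIP) family and leaves it through those of the SLC30 (ZnT) family. In liver cells the sterol-sensing SREBP factors drive cholesterol and fatty acid synthesis, HIF drives glycolysis and other hypoxia genes, and NRF2 drives glutathione and detoxification genes.

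Library totals ran from 22089462 to 26424530 expected counts in the 6 libraries and from 20446542 to 32386486 in the series. At these depths 3 counts, the limit that a count of 0 allows, equal 0.114 to 0.136 CPM (a count scaled to the size of its library), which covers counting error only. The nuclear noncoding RNA MALAT1 divides the 60 libraries into 31 at 175 to 283 CPM and 29 at 387 to 552 CPM. Replicate 3 of Saengmaek-san lies in the higher class at each dose and replicates 1 and 2 in the lower, so the classes are balanced between the doses. All vehicle libraries lie in the lower class and carry a code of their own in the descriptions. Code therefore cannot be told apart from treatment in any contrast with vehicle, and class is not balanced there. All 10 hepatocyte markers of the list were expressed. Of these FGB alone was called, lower at 500 µg/mL (-0.21), 3 of the 10 had positive values, and the list median was -0.06. Albumin (ALB) did not pass the test, at a log2 fold change of 0.03 ± 0.05 (SE; adjusted p = 0.87).

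Between 20 and 500 µg/mL 326 of 16644 genes changed, 1.96% of those tested, by edgeR's quasi-likelihood test with a Benjamini-Hochberg adjusted p under 0.05. Of these, 152 rose (0.913% of the genes tested) and 174 fell (1.05%). These shares of all genes apply to each list count of this contrast below. Most changes were small: the median absolute log2 fold change of the called genes was 0.29, and 17 changed at least 2-fold, 4 upward and 13 downward. All 3 libraries of one dose lay above all 3 of the other for 323 of the 326 genes, a separation that 15.4% of all tested genes show (7.46% higher and 7.94% lower at 500 µg/mL). The count was 176 without replicate 1 at 500 µg/mL and 189 without replicate 1 at 20 µg/mL. It was 55 in a fit of the 6 libraries alone, 51 of them among the 326, and 197 in the lower MALAT1 class alone, 169 of them among the 326.

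The metallothioneins fell furthest as a group. Of 9 listed metallothionein genes 7 had enough counts to be tested, and all 7 fell, with a median log2 fold change of -1.93 where the median of all genes was -0.01. The CPM summed over these 7 was 82.4, 123 and 131 at 500 µg/mL, 327, 360 and 394 at 100, 427, 358 and 456 at 20, and 454, 428 and 433 in vehicle. The 3 libraries at 500 were the lowest of the 12, and those at 100 and 20 µg/mL overlapped. Of the 7, 4 were called in the fit of the 6 libraries alone, at a median of -1.92, and 6 by DESeq2. In bulk RNA fewer cells with these transcripts and less of them per cell cannot be told apart. These genes are close copies of each other in a cluster on chromosome 16, so how shared reads were assigned bears on each single gene, less on the sum.

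Promoter sequences of 4 of the 9 metallothionein genes were found in the RefSeq promoter table (GRCh38.p14), among them MT2A and MT1X. MT2A and MT1X are shown because they were the called genes among the 4. Each line holds the 250 bases before the start on the plus strand, MT2A at chr16:56608334-56608583 and MT1X at chr16:56682220-56682469. Capitals mark matches, on either strand, to the core of the metal response element, searched as TGCACNC and TGCGCNC.
MT2A: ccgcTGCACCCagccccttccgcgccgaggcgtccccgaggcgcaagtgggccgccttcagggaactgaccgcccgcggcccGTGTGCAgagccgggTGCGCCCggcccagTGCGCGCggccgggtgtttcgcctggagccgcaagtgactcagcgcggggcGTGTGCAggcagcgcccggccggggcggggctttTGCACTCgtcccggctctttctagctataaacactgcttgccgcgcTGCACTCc
MT1X: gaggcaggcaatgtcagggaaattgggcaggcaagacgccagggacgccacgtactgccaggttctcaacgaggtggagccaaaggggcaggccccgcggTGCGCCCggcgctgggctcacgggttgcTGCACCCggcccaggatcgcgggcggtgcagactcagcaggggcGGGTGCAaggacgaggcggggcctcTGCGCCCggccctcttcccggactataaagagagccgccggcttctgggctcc
MT2A holds 7 such matches and MT1X holds 4. MT1H and MT1B, which were not called, hold 8 and 3 in their windows, so matches are not particular to the called genes. Of 35116 promoter windows in that table, 24.8% hold at least 1 match within the same 250 bases and 0.37% hold at least 4. A match describes letters and is not a measured binding site.

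MT1G (chr16 56666731 to 56668065) had 7.71, 12.1 and 11.9 CPM at 500 µg/mL and 60.5, 50.7 and 65.5 CPM at 20 µg/mL. At 100 µg/mL it had 44.3, 51.1 and 54.0 CPM, and in vehicle 57.5, 60 and 61.1. The groups at 500 and 20 µg/mL are far apart, and the fold change was -2.49 ± 0.16 in log2 (SE; adjusted p = 3.4e-14 by edgeR's quasi-likelihood test). MT2A (chr16 56608199 to 56609497), the most widely expressed isoform in human tissues, had 42.1, 65.4 and 70.5 CPM at 500 µg/mL and 195, 163 and 209 at 20. Its fold change was -1.68 ± 0.17 (adjusted p = 4.7e-09 by edgeR). MT1X (chr16 56682424 to 56684196) had 7.82, 9.46 and 8.88 CPM against 36.8, 29.1 and 32.1, a change of -1.91 ± 0.13.

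MT1F and MT1E behaved alike, at -2.30 ± 0.16 and -1.93 ± 0.17 in log2. MT1A, of low level, had 0.711, 1.02 and 0.852 CPM against 1.82, 1.75 and 1.98 and fell as well (adjusted p = 0.0027 by edgeR). MT1M was counted 2, 2 and 0 times at 500 µg/mL and 24, 29 and 17 times at 20, so each library at 500 lies under the limit of 3 counts. Its fitted value of -4.05 depends on the prior count and is no estimate of the fold, and the list median does not turn on it. Leaving out any 1 of the 6 libraries kept the calls of MT1G, MT1F, MT1E, MT1X and MT2A, with MT1G between -2.60 and -2.29.

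**Figure D1:**
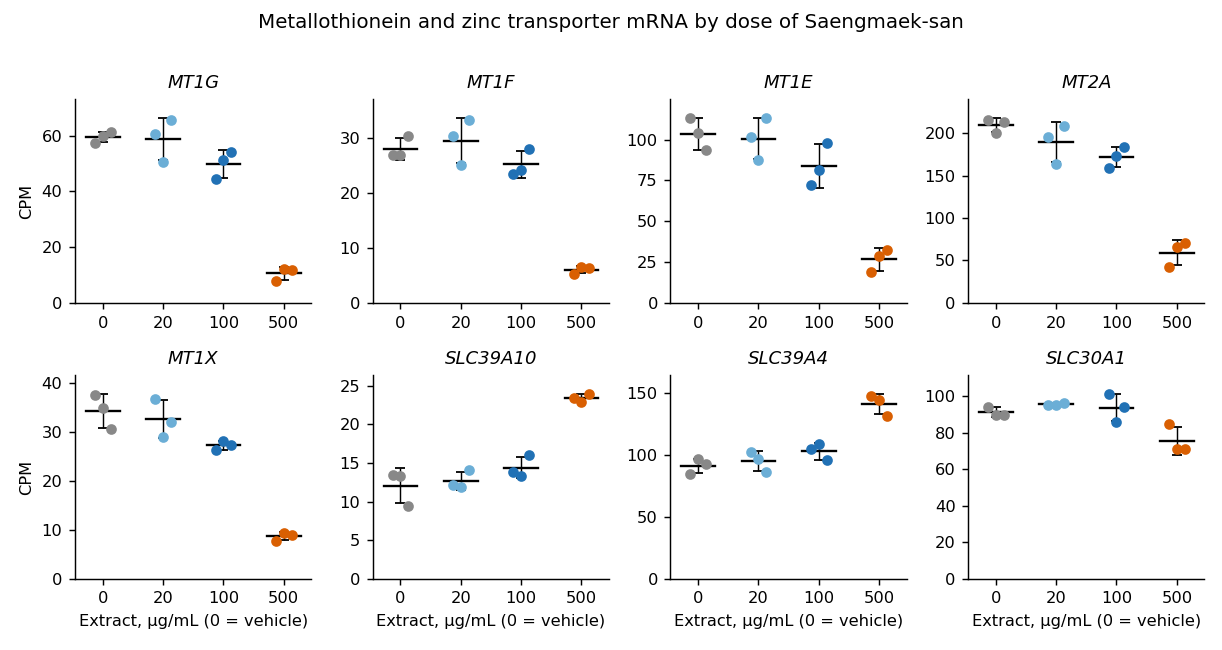
CPM of 5 metallothionein genes and 3 zinc transporters in vehicle (0) and at 20, 100 and 500 µg/mL of Saengmaek-san; points are single libraries, bars the mean and SD of 3. The 3 libraries at 500 µg/mL stand apart from those at the other doses in each panel, lower for the metallothioneins and SLC30A1 and higher for SLC39A10 and SLC39A4.

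Of 20 tested genes of zinc transport 4 changed, 2 upward and 2 downward (0.913% and 1.05% of all genes did). Both that rose are importers of the ZIP family. SLC39A10 (chr2 195575977 to 195737702), a plasma membrane importer, had 23.5, 22.9 and 24.0 CPM at 500 µg/mL and 12.2, 11.9 and 14.1 at 20, with 13.8, 13.4 and 16 at 100. It rose by 0.89 ± 0.10 in log2 (adjusted p = 7.7e-09 by edgeR). SLC39A4, the importer of dietary zinc whose loss causes acrodermatitis enteropathica, had 148, 145 and 132 CPM against 103, 96.5 and 86.5 and rose by 0.57 ± 0.07. Both that fell are exporters of the ZnT family. SLC30A1, the zinc exporter of the plasma membrane and itself a known MTF1 target, had 84.6, 71.0 and 71.3 CPM against 95.2, 95.3 and 96.1 and fell by 0.34 ± 0.07 (SE). SLC30A3 lay near 1 CPM at 500 and near 2 CPM at 20 µg/mL, with a change of -0.94 ± 0.21. In the fit of the 6 libraries alone and in the lower MALAT1 class alone both importers were called and neither exporter was. MTF1 itself did not pass, at 0.06 ± 0.08 (adjusted p = 0.79), nor did the importer SLC39A14 at 0.09 ± 0.06 (0.57). The list median was 0.03.

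Genes of sterol synthesis fell as well, by small amounts. Of 26 tested genes of cholesterol synthesis and uptake 15 fell (1.05% of all genes did) and 0 rose, with a list median of -0.21. HMGCS1, which makes HMG-CoA for the pathway, had 298, 294 and 290 CPM at 500 µg/mL and 373, 370 and 396 at 20. No library at 500 reached any at 20 or 100 µg/mL, and the fold change was -0.37 ± 0.05 in log2 (adjusted p = 3.9e-06 by edgeR). The mevalonate enzymes MVK and MVD fell by 0.35 and 0.36, squalene synthase FDFT1 by 0.31, lanosterol synthase LSS by 0.295 and the sterol reductase TM7SF2 by 0.38. Among the others that fell were ACAT2, FDPS, SQLE, NSDHL, HSD17B7, EBP, SC5D and DHCR7. In the fit of the 6 libraries alone 25 of them were tested and 2 called.

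Fatty acid synthesis had 6 of 16 tested genes lower (1.05% of all genes were) and 0 higher, with a median of -0.17. ACSS2, the cytosolic acetyl-CoA synthetase, had 106, 108 and 95.3 CPM at 500 µg/mL against 149, 142 and 140 at 20 and fell by 0.48 ± 0.04 (adjusted p = 7.7e-12 by edgeR). The desaturase FADS2 fell by 0.30, the transcription factors SREBF1 and MLXIPL by 0.26 and 0.25, the acyltransferase GPAM by 0.21 and the elongase ELOVL6 by 0.20. Of the 16, 1 was called in the fit of the 6 libraries alone and 3 in the lower MALAT1 class alone. FASN, ACACA and SCD, the central enzymes of the pathway, had values of -0.17, -0.09 and -0.17 and did not pass. In fatty acid oxidation 1 of 17 genes rose, the lipid droplet coat gene PLIN2 at 0.20 ± 0.05, and 0 fell.

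NRF2 target genes rose in 12 of 29 tested cases (0.913% of all genes did) and fell in 0, with a median of 0.20. AKR1B10 (chr7 134527592 to 134541408), an aldo-keto reductase, was the gene of largest rise under the naming rule, with 83.3, 81.1 and 75.0 CPM at 500 µg/mL and 46.5, 42.4 and 40 at 20. At 100 µg/mL it had 46.4, 49.8 and 42.5 CPM, which overlap those at 20. The fold change was 0.89 ± 0.06 in log2 (adjusted p = 5.5e-16 by edgeR). GCLM and GCLC, the subunits of the enzyme that begins glutathione synthesis, rose by 0.43 ± 0.06 and 0.25 ± 0.05, and the cystine importer SLC7A11 by 0.35. The efflux pump ABCC2 had 398, 397 and 408 CPM against 300, 302 and 298 and rose by 0.42 ± 0.05. AKR1C1 and AKR1C2, near-identical copies whose reads can be shared, rose by 0.39 and 0.315, and the autophagy receptor SQSTM1 by 0.37. The others that rose were NQO1, TXNRD1, SRXN1 and UGDH. Haem oxygenase HMOX1 did not pass, at 0.03, nor did the pentose phosphate enzyme PGD at -0.03. In the fit of the 6 libraries alone 7 of the 29 were called.

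Among 6 tested AHR targets 2 rose, CYP1A1 and NQO1. CYP1A1 (chr15 74719542 to 74725610), a cytochrome P450 that is the classic AHR target, had 12.9, 12.5 and 11.8 CPM at 500 µg/mL and 7.44, 8.41 and 7.29 at 20. The levels at 100 µg/mL, 7.18, 7.54 and 7.90, and in vehicle, 8.49, 7.07 and 7.68, overlapped those at 20. The fold change was 0.68 ± 0.08 (adjusted p = 2.3e-08 by edgeR). AHRR, TIPARP and ALDH3A1 did not pass, at 0.03, -0.05 and 0.03. Of 7 tested PXR and CAR targets 0 were called.

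Glycolysis genes rose in 11 of 21 cases (0.913% of all genes did) and fell in 0, with a median of 0.22. Hexokinase HK2, which traps glucose in the cell, had 176, 160 and 150 CPM at 500 µg/mL against 124, 132 and 122 at 20 and rose by 0.36 ± 0.07 (adjusted p = 0.00028 by edgeR). The glucose transporters SLC2A1 and SLC2A3 rose by 0.28 ± 0.05 and 0.25 ± 0.06, and GPI, ALDOA, ENO1 and LDHA by 0.25 to 0.28. PGK1, PGAM1, ENO2 and PKM also rose. GAPDH and HK1 did not pass, at 0.07 and 0.02. In the fit of the 6 libraries alone 1 of the 21 was called. Glycolysis was already above vehicle at the low dose: 10 of the 21 were higher at 20 µg/mL than in vehicle, where 1.45% of all genes were, and 19 at 500 µg/mL, where 5.67% were. These contrasts share libraries with that of 500 against 20. Vehicle carries its own code, which cannot be told apart from treatment here.

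Of 20 hypoxia targets 6 rose (0.913% of all genes did) and 0 fell, with a median of 0.27. PDK1, the kinase that inhibits pyruvate dehydrogenase, had 41.4, 44.4 and 50.1 CPM at 500 µg/mL against 32.7, 30.9 and 37.1 at 20. It rose by 0.43 ± 0.10 (adjusted p = 0.012 by edgeR). INSIG2, which holds SREBP in the endoplasmic reticulum, rose by 0.32, the mitophagy receptor BNIP3 by 0.30, the oxygen sensor EGLN1 by 0.28, the collagen hydroxylase P4HA2 by 0.27 and the demethylase KDM3A by 0.22. VEGFA stood at 0.00 ± 0.05 and did not pass. In the fit of the 6 libraries alone 19 of them were tested and 0 called, and in the lower class alone 6 were. At 20 µg/mL 10 of the 20 were already higher than in vehicle, where 1.45% of all genes were.

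**Figure D2:**
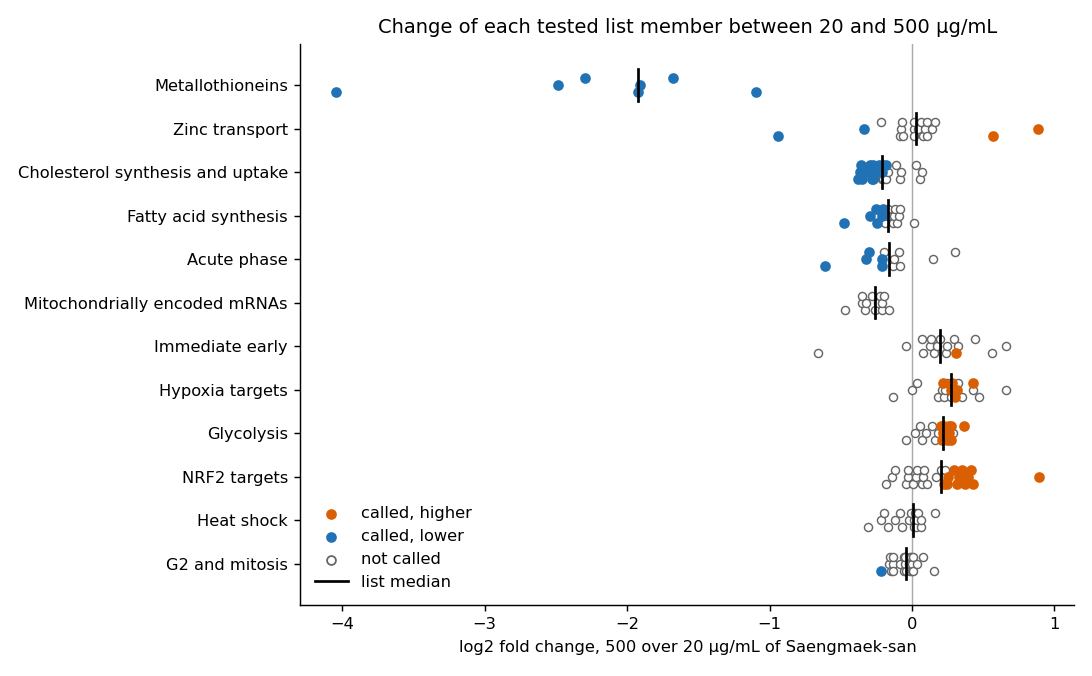
log2 fold change between 20 and 500 µg/mL for each tested member of 12 gene lists; filled points passed the test (orange higher, blue lower), open points did not, and bars mark list medians. All 7 metallothioneins lie left of 0, down to the fitted -4.05 of MT1M, while the medians of the other 11 lists lie between -0.26 and 0.27.

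In 4 of the named genes, all of fasting and hypoxia responses, the means followed another order. They lay above vehicle at 20 µg/mL and had their lowest mean among the 3 doses at 100. None of the 4 was called from 20 to 100 µg/mL, a step at which 1 gene in all was called, so the dip at 100 did not pass a test. IGFBP1 (chr7 45888357 to 45893668), a liver-secreted binding protein for insulin-like growth factors, had 125, 167 and 152 CPM at 500 µg/mL, 52.0, 79.2 and 55.4 at 100, 57.7, 103 and 86.9 at 20, and 23.2, 26.0 and 30.4 in vehicle. It rose by 0.84 ± 0.21 between 20 and 500 µg/mL (adjusted p = 0.024 by edgeR), a call lost without replicate 1 or 3 at 20 or replicate 2 or 3 at 500 µg/mL, with an adjusted p of up to 0.25. G6PC1, glucose-6-phosphatase, had 5.09, 6.03 and 6.37 CPM at 500, 3.24, 2.94 and 3.07 at 100, 3.64, 5.47 and 6.17 at 20 and 1.39, 1.5 and 1.33 in vehicle. It did not pass between 500 and 20 µg/mL (0.19 ± 0.18, adjusted p = 0.72 by edgeR), and these groups overlap. Between 100 and 500 it rose by 0.92 (0.0019). CA9, a hypoxia-induced carbonic anhydrase, did not pass either, at 0.33 ± 0.37 (0.78), with 6.17, 14.4 and 12.8 CPM at 500 and 6.21, 10.7 and 9.49 at 20. LOX, the collagen-crosslinking lysyl oxidase, rose by 0.78 from 100 to 500 µg/mL and stood at 0.47 ± 0.18 (0.20) from 20 to 500. Replicate 1 is the lowest of the 3 at 20 and at 500 µg/mL in all 4 of these genes.

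**Figure D3:**
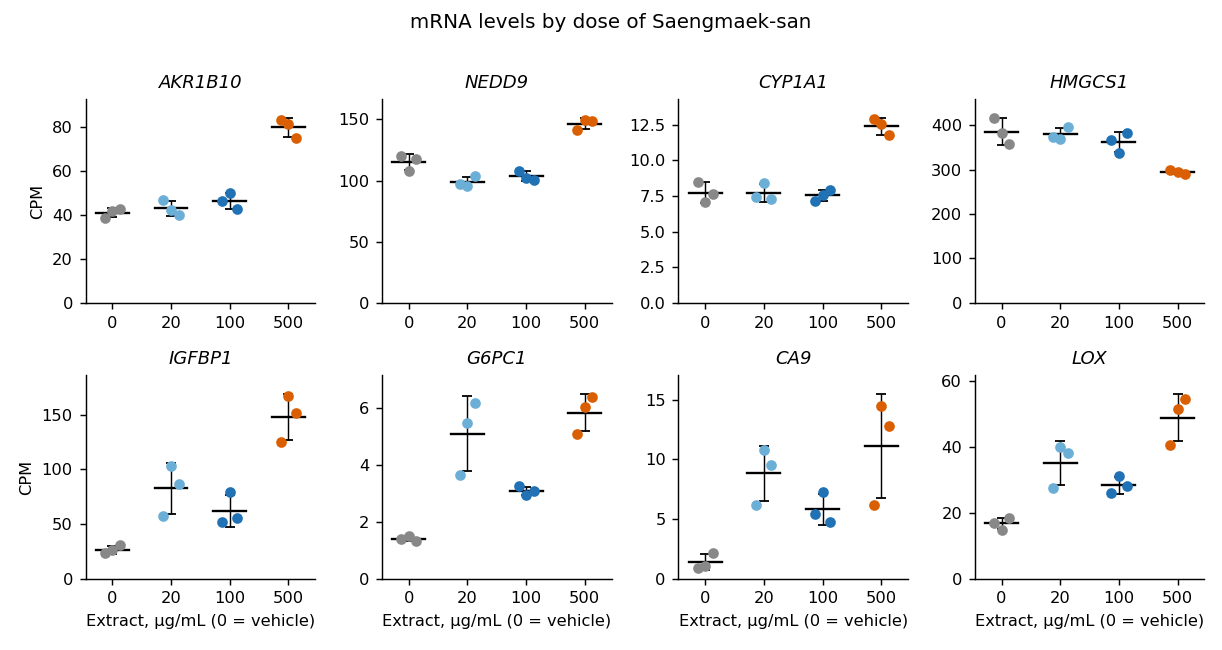
CPM of 8 genes in vehicle (0) and at 20, 100 and 500 µg/mL of Saengmaek-san; points are single libraries, bars the mean and SD of 3. The libraries at 20 and 100 µg/mL overlap for AKR1B10, NEDD9, CYP1A1 and HMGCS1, and IGFBP1, G6PC1, CA9 and LOX have their lowest mean among the 3 doses at 100.

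Further genes that rose by the naming rule had varied roles. NEDD9, a focal adhesion scaffold, rose by 0.57 ± 0.06, the stress cytokine GDF15 by 0.54 ± 0.10 and the vitamin D hydroxylase CYP24A1 by 0.54 ± 0.06. NEDD9 had 141, 150 and 149 CPM at 500 and 97.4, 95.4 and 104 at 20, while vehicle had 120, 108 and 118, so the low dose was below vehicle (-0.22, adjusted p = 0.014) and the high dose above it (0.35). PLAC8, TMCC1, ZC3H12D and the ribonuclease RNASET2 rose by 0.65, 0.62, 0.55 and 0.55. GDF15 was the 1 of 20 p53 targets to rise, JUN the 1 of 17 immediate early genes and CCL20 the 1 of 10 NF-kB targets. With 0.913% of all genes rising, such a single call describes the gene and not its list. Of the immediate early genes 15 had positive values, with a median of 0.195. LYZ, lysozyme, from the list of leukocyte markers, rose by 0.36 ± 0.06, with 1462, 1340.0 and 1473 CPM against 1048, 1115 and 1160.0. Of the 8 leukocyte markers 4 were tested and LYZ alone was called. PTPRC, the pan-leukocyte marker CD45, had 0 counts in all 3 libraries at 500 µg/mL, and the T cell marker CD3E had 0 in all 6. The 8 summed to 1390 to 1540 CPM of the unscaled library total at 500 and 1080 to 1220 at 20, nearly all of it LYZ. Their part in other results was not tested. Of the fibroblast, endothelial and neural marker lists 2, 4 and 0 genes were tested and 0 called.

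Plasma proteins of the acute phase fell in 5 of 12 tested cases (1.05% of all genes did) and rose in 0, with a median of -0.16. HAMP (chr19 35280716 to 35285143), the iron hormone hepcidin, had 13.1, 18.6 and 19 CPM at 500 µg/mL against 26.9, 25.2 and 25.0 at 20, and 27.6, 31.1 and 28.7 at 100. It fell by 0.61 ± 0.13 (SE; adjusted p = 0.0025 by edgeR), a call lost without replicate 1 at 500 µg/mL (adjusted p = 0.085). Haptoglobin HP fell by 0.32 and the fibrinogen chains FGG, FGA and FGB by 0.30, 0.21 and 0.21. Of the 12, 1 was called in the fit of the 6 libraries alone. The bradykinin precursor KNG1 fell by 0.53. Of 14 iron genes TFRC, the transferrin receptor, rose by 0.295, while HAMP and its regulator TFR2 (-0.21) fell. The ferritins FTH1 and FTL stood at 0.09 and -0.04 and the exporter SLC40A1 at 0.01, and none of them passed.

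Further genes that fell by the naming rule were TRIM50, a ubiquitin ligase, by 0.62 ± 0.09, the noncoding RNA OLMALINC by 0.58, the protocadherin PCDHGB1 by 0.58, PTMS by 0.56, the transcription factor NFE2 by 0.49 and ARHGAP33 by 0.48. The calls of the last 5 depend on single libraries. PCDHGB1 and PTMS were each lost in 5 of 6 fits that left out 1 library, at adjusted p of up to 0.15 and 0.20. ARHGAP33 was lost in 4 (up to 0.42), OLMALINC in 2 (up to 0.15) and NFE2 in 1 (0.085). PCDHGB1 shares exons with its neighbours in the protocadherin cluster, so its count depends on how shared reads were assigned.

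The mitochondrial 12S ribosomal RNA and the mitochondrial mRNAs had values of opposite sign. MT-RNR1, the 12S rRNA, had 9182, 8617 and 7788 CPM at 500 µg/mL and 4888, 5121 and 4870.0 at 20, and rose by 0.78 ± 0.11 (adjusted p = 4.4e-06 by edgeR). The level in vehicle lay between these, at 7031, 6496 and 6474 CPM. MT-RNR2, the 16S rRNA from the same transcript, did not pass, at 0.13 ± 0.11 (0.67). All 13 mitochondrially encoded mRNAs had negative values, with a median of -0.26, and 0 passed the test. Reads of mitochondrial genes took 9.8 to 11.3% of the counts at 500, 10.9 to 11.7% at 20 and 13 to 16.4% in vehicle, so the ranges at 500 and 20 µg/mL overlap. The part of this share in the other results was not tested.

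Gene groups that mark division and general stress moved little. Of 25 G2 and mitosis genes 1 fell, the cyclin CCNB2 at -0.22 ± 0.05, and of 26 DNA replication genes 0 were called. Of 18 heat shock genes 0 were called, of 17 ER chaperone genes 1 fell (DNAJB11 at -0.21), and of 20 ATF4 targets SLC7A11 rose and NUPR1 fell. Ribosomal proteins and nuclear-encoded respiratory subunits had 0 of 33 and 0 of 30 called, with medians of -0.08 and -0.05.

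Nearly all of the change lay between 100 and 500 µg/mL. From 100 to 500 µg/mL 367 genes changed, 197 upward (1.18% of those tested) and 170 downward (1.02%), 2.2% in all, and 218 of the 326 were among them in the same direction. The count was 200 without replicate 1 at 500 µg/mL, 202 without replicate 2 at 100 and 50 in a fit of these 6 libraries alone. With a replicate block in that fit it was 1058, 498 higher and 560 lower. From 20 to 100 µg/mL 1 gene changed (0.00601%) by edgeR, against 518 at an unadjusted p under 0.05 and 0 by DESeq2. The count was 0 without replicate 1 at 100 or at 20 µg/mL. It was PRMT5-DT, a noncoding RNA on the opposite strand beside PRMT5, for which the strand setting of the counting is not known. It lies under 1 CPM in all libraries of this formula and of vehicle. For the 152 genes that rose the median log2 change was 0.02 from 20 to 100 µg/mL and 0.265 from 100 to 500, and for the 174 that fell -0.04 and -0.27. The upper step was the larger for 307 of the 326. Both steps share the libraries at 100 µg/mL, and the 326 were chosen on their sum. The contrasts of 500 with 100 and of 500 with 20 share the libraries at 500 µg/mL. The overlap of 218 genes is therefore not an independent result.

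**Figure D4:**
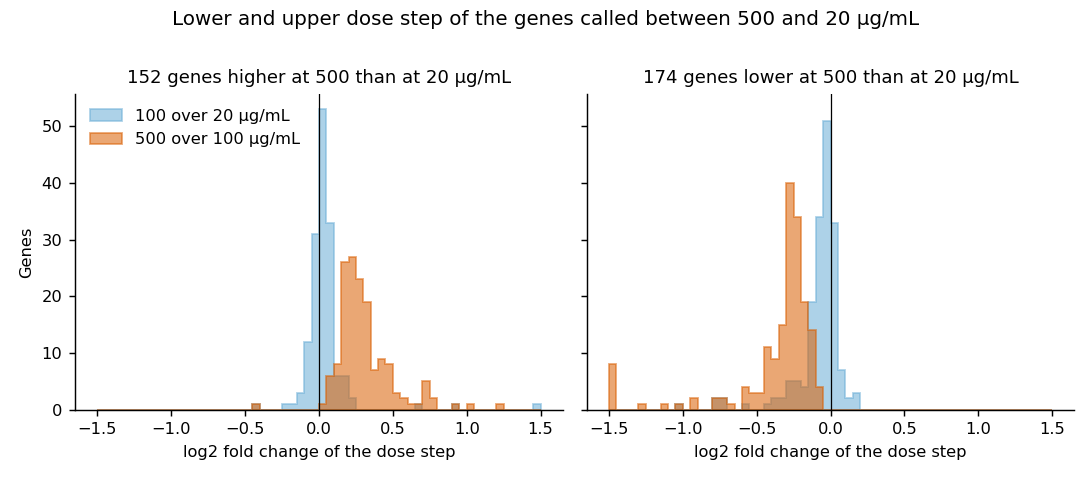
Number of genes by log2 fold change of the lower dose step (20 to 100 µg/mL, blue) and of the upper step (100 to 500 µg/mL, orange), for the 152 genes that rose and the 174 that fell between 20 and 500 µg/mL; values beyond 1.5 in size are drawn in the end bins. The lower step centres near 0 in both panels, at medians of 0.02 and -0.04.

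Against vehicle 2105 genes differed at 500 µg/mL (12.6% of those tested, 5.67% higher and 6.98% lower) and 561 at 20 µg/mL (3.37%, 1.45% higher and 1.92% lower). The latter count was 217 without replicate 2 at 20 µg/mL, 312 without replicate 1 at 20 and 276 without vehicle replicate 1. Fits of only the groups compared gave 960 and 216, and the MALAT1 class as covariate gave 1050 at 20 µg/mL. Of the 326, 253 were called against vehicle at 500 µg/mL in the same direction and 0 in the opposite one. At 20 µg/mL 30 were called against vehicle in the same direction and 10 in the opposite one. The metallothionein, NRF2, cholesterol and fatty acid synthesis lists had 0 genes called between 20 µg/mL and vehicle. These contrasts share their treated libraries with that of 500 against 20 µg/mL. Vehicle also has its own code and only lower-class libraries, so treatment and code cannot be told apart in these counts.

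The change with dose was then set against that of the other replicated extracts, by testing the difference between the 2 changes for each gene. Against Guibi-tang, another formula, 192 genes differed (1.15% of those tested), 54 with the higher log2 change in Saengmaek-san and 138 with the lower (0.324% and 0.829%). The count was 127 without replicate 1 of Saengmaek-san at 500 µg/mL, 115 without its replicate 1 at 20, and 98 or 119 without replicate 2 of Guibi-tang at 500 or at 20. It was 37 in a fit of only the groups compared and 257 with the MALAT1 class as covariate. The classes are not balanced between the doses of Guibi-tang: its replicate 2 lies in the lower class at 500 µg/mL and in the higher at 20. The lower class holds only replicate 1 of Guibi-tang at 20 µg/mL, so no conclusion is drawn from this difference in that class alone. The AHR target CYP1A1 went from 8.47 to 45.8 CPM with Guibi-tang and from 7.72 to 12.4 with Saengmaek-san, a difference of -1.75 ± 0.11 in log2 (adjusted p = 9e-18 by edgeR). TRIM50 went from 18.7 to 25.0 CPM with Guibi-tang and from 19.5 to 12.6 with Saengmaek-san (-1.03 ± 0.13 by the fit). Of 29 NRF2 targets 6 differed, all with the lower value in Saengmaek-san, with SQSTM1 at -0.74 ± 0.08. Of the 7 metallothioneins MT1G and MT1X differed, at -0.93 ± 0.22 (adjusted p = 0.022) and -0.68 ± 0.18 (0.049), each falling further with Saengmaek-san.

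Against the mean change of the 5 other replicated extracts (Menthae Herba, Saposhnikoviae Radix, Guibi-tang, Soyo-san and Okbyeongpung-san) 81 genes differed, 0.487% of those tested. The count was 34 without replicate 1 of Saengmaek-san at 500 µg/mL and 38, 31 and 51 without its replicate 1, 2 or 3 at 20. It was 133 with the MALAT1 class as covariate and 122 by DESeq2. CYP1A1 had the smallest rise with Saengmaek-san, to 12.4 CPM where the others reached 32.6 to 98.1, a difference of -1.95 ± 0.09 (adjusted p = 9.9e-24 by edgeR). HAMP differed from that mean by 1.13 ± 0.15 (5.8e-06), and the extracts were not alike. It went from 25.6 to 0.689 CPM with Menthae Herba and from 24.9 to 4.19 with Soyo-san. With Guibi-tang it went from 25.7 to 17.4, with Saposhnikoviae Radix from 23.9 to 15.5 and with Okbyeongpung-san from 24.4 to 28.1, beside 25.7 to 16.9 with Saengmaek-san. The difference from Guibi-tang alone did not pass, at -0.05 ± 0.18 (0.96). CYP24A1 went from 27.0 to 39.3 CPM with Saengmaek-san and from 26.5 to 38.5 with Guibi-tang, while the other 4 extracts ended at 18.2 to 26.8 CPM, and the difference was 0.62 ± 0.07. Against the 5-extract mean 0 of the 7 metallothioneins passed, and their median difference was -0.56.

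**Figure D5:**
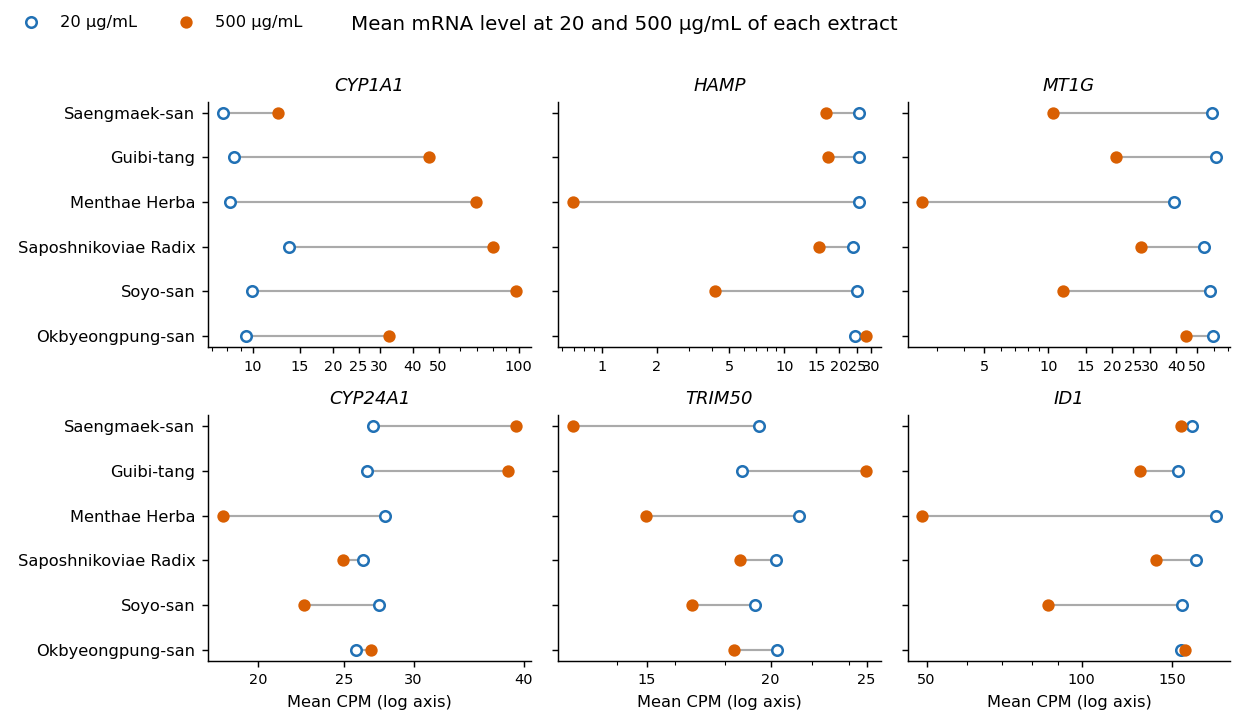
Mean CPM of 3 libraries (log axis) at 20 µg/mL (open) and 500 µg/mL (filled) of 6 extracts for 6 genes. CYP1A1 rises least with Saengmaek-san, TRIM50 falls with Saengmaek-san and is higher at 500 µg/mL with Guibi-tang, and CYP24A1 is higher at 500 µg/mL with these 2 formulas.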

How the data were processed

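Gene expression was measured by RNA sequencing in 60 HepG2 libraries. The expected counts per gene were deposited by the authors for 60675 genes. Per the submitters' processing notes the tools were FastQC 0.11.9, Trim Galore 0.6.5, STAR 2.7.3a and RSEM 1.3.3 with GRCh38. For the annotation release and the strand setting, the sources used here give nothing. Of the nonzero values 71.9% were whole, so all were rounded before testing. Genes without a symbol held 0.0472% of the counts. Positions are those of GENCODE on GRCh38.

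Counts were tested with edgeR 4.0.16 in R 4.3.3 (limma 3.58.1): TMM scaling, genes kept by filterByExpr with a minimum count of 10, and a robust quasi-likelihood fit of 57 libraries in 19 groups, which leaves out 3 unreplicated libraries. The common dispersion was 0.00345. P-values are two-sided and adjusted by Benjamini-Hochberg over 16644 genes. A standard error (SE) is the absolute log2 fold change divided by the square root of F. CPM values are scaled by TMM. The scripts were tested on simulated data. Tables and plots used Python 3.11.15, pandas 2.3.3 and matplotlib 3.10.9.

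Named genes were the 14 largest changes in each direction among called genes whose mean reached 5 CPM at one of the doses, with no overlap between libraries, up to 6 called members of each list, the 5 largest in each direction for each dose step and difference between extracts, and a few set genes. Other list members are named to complete a list. The genes compared and the lists were chosen with earlier results of these data known. The alternatives were RLE scaling, no count filter, a fit of only the groups compared, replicate blocks, the MALAT1 class as covariate or restricted to its lower class, DESeq2 1.42.0, and leaving out each library. Some genes of the lists and of the naming rule are not reported here.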

Additional observations from a re-analysis of the deposited data

Results flagged for a closer look

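The difference in dose response was tested as an interaction, the log2 change from 20 to 500 µg/mL in Saengmaek-san minus that of another extract, by edgeR's quasi-likelihood test. It passed for 192 genes against Guibi-tang and for 81 against the mean of 5 other extracts. Most of the genes below did not pass within Saengmaek-san itself, and the values here are differences between extracts.

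Against Guibi-tang the largest positive differences were those of the sodium channel SCN1A (0.57 ± 0.11, SE), the homeobox gene HOXD1 (0.54 ± 0.13), RIC8B (0.495 ± 0.13), the matrix protein MATN3 (0.49 ± 0.08) and the glucose transporter SLC2A10 (0.46 ± 0.10). The means of SCN1A were 35.8 CPM at 20 and 32.8 at 500 µg/mL with Saengmaek-san, and 35.4 and 21.9 with Guibi-tang. The largest negative differences were those of CYP1A1 (-1.75 ± 0.11), SH2D5 (-1.34 ± 0.16), TRIM50 (-1.035 ± 0.13), UAP1L1 (-0.97 ± 0.10) and MT1G (-0.93 ± 0.22). UAP1L1 stayed between 28.5 and 28.7 CPM in the means of Saengmaek-san and went from 29.6 to 58.6 with Guibi-tang. MT1G went from 58.9 to 10.6 CPM and from 61.2 to 20.9.

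Against the 5-extract mean the largest positive differences were those of HAMP (1.13 ± 0.15), CYP24A1 (0.62 ± 0.07), the BMP target ID1 (0.58 ± 0.09), HOXD1 (0.46 ± 0.10) and PAQR8 (0.405 ± 0.05). ID1 had 164 CPM at 20 and 156 at 500 µg/mL of Saengmaek-san, where Menthae Herba ended at 49.0 and Soyo-san at 86.1. The largest negative differences were those of CYP1A1 (-1.95 ± 0.09), the EGF receptor ligand AREG (-0.69 ± 0.14), the tetraspanin CD9 (-0.58 ± 0.13), TRIM50 (-0.51 ± 0.10) and the stress gene NUPR1 (-0.50 ± 0.13). AREG had 3.54 and 4.03 CPM at 20 and 500 µg/mL of Saengmaek-san, and 3.44 and 7.14 with Guibi-tang.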

How the results depend on the processing

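The count of 326 genes between 20 and 500 µg/mL was 315 with RLE scaling, 403 with DESeq2 and 482 with the MALAT1 class as covariate. Without the count filter it was 536, and 677 for 500 against 100, 88 for 100 against 20, 380 against Guibi-tang and 242 against the 5 extracts. In fits of only the groups compared the counts were 55, 50 and 0 for the 3 dose contrasts in that order, 960 for 500 and 216 for 20 µg/mL against vehicle, and 37 against Guibi-tang. In the lower MALAT1 class alone they were 197, 0 for 100 against 20, and 32 against Guibi-tang, and the 5-extract difference could not be run. Guibi-tang at 20 µg/mL has only replicate 1 in the lower class. The lower-class count against Guibi-tang thus rests on an unreplicated group, and no conclusion is drawn from it. The class as covariate gave 1050 genes for 20 µg/mL against vehicle and 133 against the 5 extracts. DESeq2 gave 0 for 100 against 20 and 122 against the 5 extracts. The cause of these shifts was not tested.

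The deviations of same-numbered libraries at 500 and 20 µg/mL had correlations of 0.0281, 0.0552 and 0.195, the last for replicate 3. Differently numbered pairs of these doses ran from -0.139 to 0.0941, and those with replicate 3 were negative. Between 500 and 100 µg/mL same-numbered libraries had 0.165, 0.0877 and 0.214. Replicate 3 is the library of the higher MALAT1 class at each dose. The main fit holds no replicate block, so a shared replicate structure is not taken into account there. With the replicate block in only the groups compared the counts were 133 for 500 against 20, 1058 for 500 against 100 (498 higher and 560 lower), 7 for 100 against 20, and 361 and 176 for 500 and 20 µg/mL against vehicle. The replicate block nested in the code number of the descriptions gave 501 for 500 against 20 and 140 against the 5 extracts, and could not be fitted for vehicle.

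Leaving out 1 library gave 176 to 288 genes for 500 against 20, 200 to 349 for 500 against 100, 0 to 1 for 100 against 20, 1546 to 1891 and 217 to 445 for 500 and 20 µg/mL against vehicle, 98 to 214 against Guibi-tang and 31 to 97 against the 5 extracts. For 109 single-gene results 1875 values were computed under these alternatives: 1621 kept their direction and side of the threshold, 254 kept their direction and no longer passed, and 0 changed sign. The losses were uneven. In fits of only the groups compared 53 of 109 no longer passed, and with a replicate block in those fits 28 of 109. RLE scaling, DESeq2 and the MALAT1 class as covariate lost 0. Leaving out a library gave 1014 of the 1875 values, of which 142 no longer passed.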

Other observations

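The genes in this paragraph were chosen after their values were seen. Adhesion, matrix and secreted proteins were among those that rose between 20 and 500 µg/mL by edgeR's quasi-likelihood test. The collagen-binding integrin ITGA2 had 118, 111 and 120 CPM at 500 µg/mL against 79.9, 89.3 and 90.3 at 20 (0.425 ± 0.07 in log2, SE). The activin antagonist FST rose by 0.46 ± 0.05, the hyaluronan-degrading protein CEMIP by 0.48 ± 0.07 and the collagen lysyl hydroxylase PLOD2 by 0.30 ± 0.08. The apolipoproteins APOL1 and APOL2 rose by 0.43 ± 0.08 and 0.40 ± 0.06. HAVCR1, a kidney injury marker, and the lipocalin LCN15 rose by 1.09 ± 0.22 and 1.09 ± 0.20 from low levels, with 2.96, 2.84 and 3.86 CPM of HAVCR1 at 500 against 1.1, 1.47 and 1.94 at 20.

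Several genes of hepatocyte metabolism and plasma transport, also chosen after their values were seen, fell by small amounts. The haem carrier HPX had 11.1, 12.3 and 10.5 CPM at 500 µg/mL against 16.3, 15.3 and 15.1 at 20 (-0.46 ± 0.09). The glutathione transferase GSTA1 fell by 0.41 ± 0.10, the sulfotransferase SULT2A1 by 0.29 ± 0.06 and the alcohol dehydrogenases ADH6 and ADH4 by 0.27 ± 0.05 and 0.26 ± 0.07. The cortisol and thyroxine carriers SERPINA6 and SERPINA7 fell by 0.22 and 0.20. Of 23 genes on the list of secreted liver proteins 0 were called, and of 10 bile acid genes 1 was lower.

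Letters of other response elements were counted on both strands of the 250 bases before RefSeq starts. The sterol element letters TCACNCCAC were in 1 of 19 cholesterol genes found in the table, 0 of them among the 11 called, and in 0.883% of all windows. The antioxidant element letters TGACNNNGC were in 6 of 23 NRF2 targets, 2 of them among the 10 called, and in 10.9% of windows. The hypoxia element letters ACGTG or GCGTG were in 17 of 20 glycolysis genes found in the table, 7 of them among the 10 called, and in 14 of 16 hypoxia targets, 5 of them among the 6 called. All windows held them in 43.2% of cases. Called members thus did not hold the sterol, antioxidant or hypoxia letters more often than the whole lists. The metal response element letters were in 10 of 22 zinc transport genes found in the table, 2 of them among the 3 called. SLC39A10 was the called gene without a match. Genes can have several windows, so the shares of all genes are the like measure for these list counts. At least 1 window held the sterol letters in 1.09% of all genes and the antioxidant letters in 13.2%. The hypoxia letters were held so in 47.4% and the metal response element letters in 28.5%.

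Of the remaining lists, 2 of 23 lysosome and autophagy genes rose, 1 of 14 gluconeogenesis and insulin genes and 1 of 11 genes of the IGF system rose (IGFBP1 in both), and 0 of 3 nuclear RNAs were called.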
